A study of Mus musculus with 5 samples.

Results

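The 10 genes described here mark alternative activation of macrophages and dendritic cells and the type 2 response, with Nos2 added for contrast. They were chosen by name from the deposited table, and all 10 were found among its 23284 genes. The ligands are Ccl17 and Ccl22, the receptors are Il4ra, Mrc1, Clec10a and Mgl2, the enzymes are Arg1, Nos2 and the ribonuclease Ear2, and Il10 is a cytokine. They were followed in primary tumors of B16F1 cells, a melanoma line from C57BL/6 mice, and of B16F1 cells that overexpress the neutrophil-attracting chemokine CXCL5. Both groups carry the same B16F1 background, grew intradermally in flanks of C57BL/6 J mice with no treatment given, and were excised at 250 to 350 mm³. There were 3 libraries of B16F1 and 2 of B16F1-CXCL5 tumors. Age and sex of the mice, and whether the B16F1-CXCL5 cells were 1 clone, are not given in the labels. The comparison is of the level of each gene in whole tumors with and without CXCL5 overexpression.

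Alternative activation is the state that interleukin 4 and interleukin 13 bring about in macrophages and dendritic cells. Both cytokines signal through IL-4 receptor alpha to the transcription factor STAT6, which binds palindromic DNA motifs and turns on genes such as Arg1 and Mrc1 and, in dendritic cells, Ccl17 and Ccl22. Classical activation by interferon gamma and microbial products turns on Nos2 instead, and arginase 1 and inducible nitric oxide synthase compete for the same substrate, arginine. In mouse tumors, macrophages with alternative activation genes and neutrophils both belong to the myeloid infiltrate.

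Ccl22 and Ccl17 are neighbours on chromosome 8, and their promoters are shown because Ccl17 had the smallest unadjusted p of the 10 genes and Ccl22 is its neighbour and acts on the same receptor, though neither passed the adjusted test. The runs come from the 250 bases before each RefSeq start on the plus strand of GRCm38.p6, chr8:94810203-94810452 for Ccl17 and chr8:94745434-94745589 for Ccl22. The Ccl22 run has 156 bases, because the other 94 bases before its RefSeq start lie inside the gene as GENCODE M21 gives it. Capitals mark matches to the STAT motif, which is TTC and GAA with 3 bases (TTCNNNGAA) or 4 bases of any kind between them, searched on both strands.
Ccl22: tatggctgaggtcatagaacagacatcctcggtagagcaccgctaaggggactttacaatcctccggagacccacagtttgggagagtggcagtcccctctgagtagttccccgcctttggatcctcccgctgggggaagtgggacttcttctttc
Ccl17: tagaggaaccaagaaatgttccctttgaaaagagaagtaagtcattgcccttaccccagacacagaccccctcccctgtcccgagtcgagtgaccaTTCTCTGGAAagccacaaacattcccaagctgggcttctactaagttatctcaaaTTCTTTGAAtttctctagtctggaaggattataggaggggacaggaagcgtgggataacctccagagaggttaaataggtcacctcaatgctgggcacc
The Ccl17 run holds 1 match of each spacing. The form with 4 bases between lies from 154 to 145 bases and the form with 3 from 99 to 91 bases before the start, and the matches do not overlap. All 250 bases before the RefSeq start of Ccl22 hold neither, and neither gene has the NF-kB kappa B consensus there. Promoters of 6 of the 10 genes were in the RefSeq table (Mrc1, Il4ra, Ccl22, Ccl17, Mgl2 and Ear2), and Ccl17 was the only one of the 6 with either STAT motif. Over all 32851 promoters of the table, 7.02% held the form with 3 bases between, 5.85% the form with 4 and 7.25% held the kappa B consensus in the 250 bases before their starts. A match is a description of the letters and not of a bound site.

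A second set of sequences is shown because it limits what the values of 3 genes mean. Clec10a and Mgl2 are neighbouring copies on chromosome 11 with 90.8% identical bases over 927 aligned coding bases. The longest run they share is 183 bases long, coding bases 502 to 684 of Clec10a and 550 to 732 of Mgl2. Ear2 on chromosome 14 has a copy, Ear10, with 97.0% identical coding bases and a shared run of 185 bases, coding bases 89 to 273 of both.
Clec10a and Mgl2: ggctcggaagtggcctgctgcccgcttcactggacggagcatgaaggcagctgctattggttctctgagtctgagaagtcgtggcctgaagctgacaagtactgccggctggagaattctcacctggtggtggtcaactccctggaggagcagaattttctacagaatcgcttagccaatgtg
Ear2 and Ear10: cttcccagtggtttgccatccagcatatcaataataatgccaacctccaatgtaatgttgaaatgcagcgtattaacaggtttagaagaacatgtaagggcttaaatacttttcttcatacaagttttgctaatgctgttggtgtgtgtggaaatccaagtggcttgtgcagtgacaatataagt
A fragment that lies wholly within such a run cannot be assigned to 1 copy by sequence, while a longer one can reach bases that differ. The values of Clec10a, Mgl2 and Ear2 are therefore uncertain to an unknown degree. Ear10 was listed at 0 in all 5 libraries, Ear1 was at most 0.0635 FPKM, and Ear6 lay between 0.142 and 1.46 FPKM.

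Values are FPKM, a fragment count divided by transcript length and library size, so levels can be compared between genes. The steps of the low values imply about 26400000 to 28200000 fragments per library, and 12029 to 12421 genes per library reached an FPKM of 1. Cxcl5, the check of the labels, was 1.86, 3.62 and 1.01 FPKM in B16F1 libraries 1, 2 and 3 and 83.7 and 85.4 FPKM in B16F1-CXCL5 libraries 1 and 2. On the log2 scale it was higher by 4.84 (SE 0.33, limma adjusted p = 0.0163). Markers of the melanocyte lineage summed to 9459 to 12890 FPKM, and macrophage and monocyte markers to 371 to 648 FPKM. Neutrophil markers summed to 27.4 to 65.8 FPKM in B16F1 and to 775 and 844 FPKM in B16F1-CXCL5 libraries. All 12 tested ones had a log2 fold change above 0. Of these, 6 passed a limma adjusted p of 0.05, beside 0.128% of all tested genes that passed as higher. The test took genes with an FPKM of 1 in 2 or more libraries. Csf3r, Retnlg, Mmp8 and Trem1 met this only with the B16F1-CXCL5 libraries counted, where they were high, so their direction adds no support. The 3 neutrophil markers under the filter had 2 log2 fold changes above 0 and 1 below. B16F1 library 3 had the highest sum of keratinocyte markers, 1187 FPKM against 428 to 635 FPKM in the other libraries.

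The 10 genes spanned a wide range of levels. In B16F1 tumors the order by mean FPKM was Mrc1, Clec10a, Arg1, Il4ra, Ear2, Mgl2, Ccl22, Ccl17, Il10 and Nos2, from 14.2 ± 4.04 FPKM (SD, n = 3) for Mrc1 to 0.373 ± 0.1675 FPKM (SD, n = 3) for Nos2. Neighbours in this order overlapped between libraries, except Il4ra with Ear2 and Ccl17 with Il10. Over all 5 libraries, 76.0% of the genes in the table had a lower mean than Mrc1 and 42.0% a lower mean than Nos2. Il10 and Nos2 stayed under 1 FPKM in every library and therefore did not enter the main test, which took genes that reached an FPKM of 1 in 2 or more libraries.

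**Figure D1:**
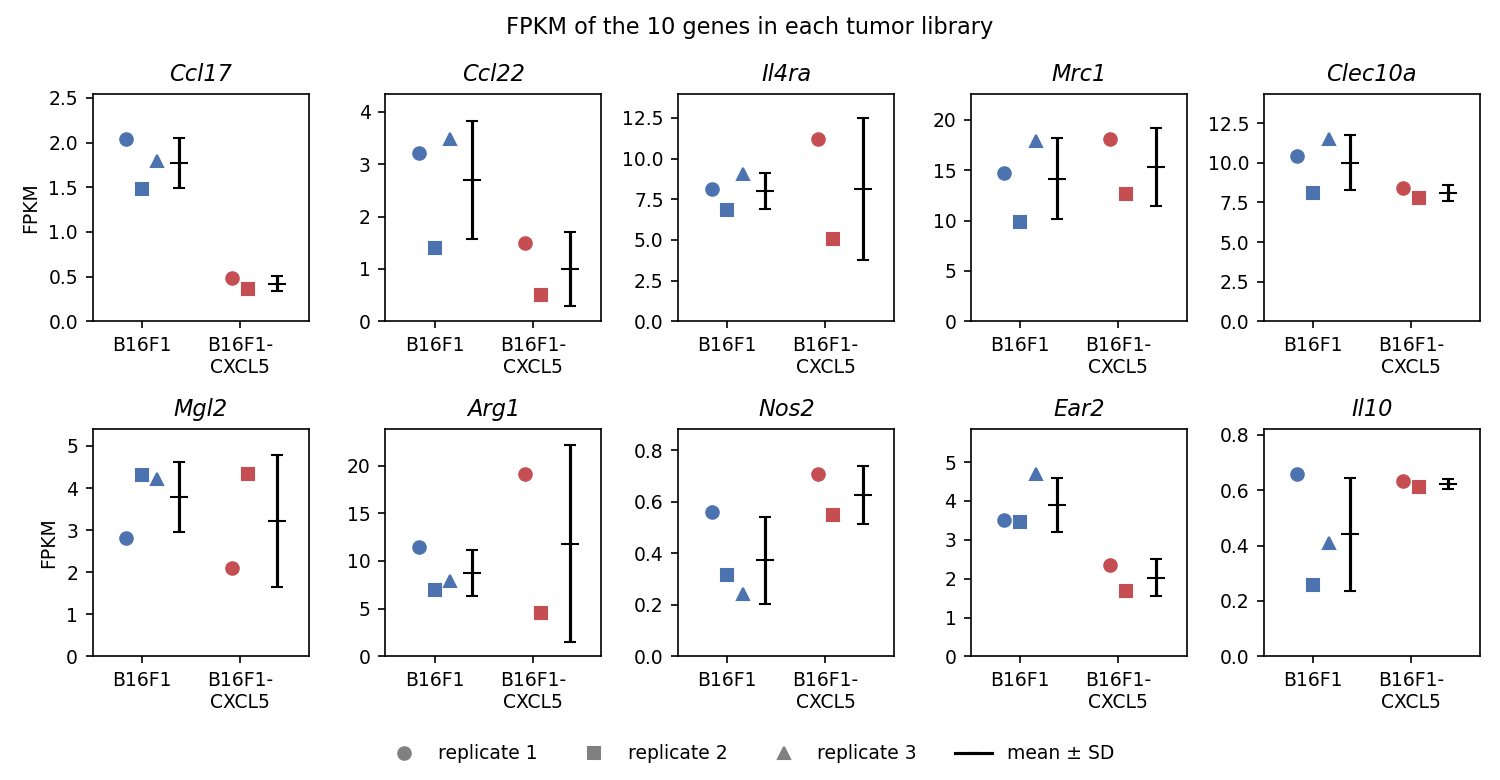
FPKM of the 10 genes (vertical axes, each from 0) in B16F1 and B16F1-CXCL5 tumors, with 1 point per library, its shape giving the replicate number, and the mean ± SD beside the points. The groups are apart for Ccl17 and Ear2, and the B16F1-CXCL5 points of Arg1 lie far from each other, at 19.1 and 4.55 FPKM.

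None of the 8 tested genes passed the limma adjusted p of 0.05, with 2 log2 fold changes above 0 and 6 below. Of all tested genes 46.6% were above 0, a share to set beside such counts here and in the lists below. Over all 12533 tested genes 0.136% passed, 16 of them higher (0.128%) and 1 lower (0.00798%). That split turned when a B16F1-CXCL5 library was left out, with 1 higher and 2 lower without library 1 and 0 higher and 2 lower without library 2. At an unadjusted limma p under 0.05 there were 3 of the 8, Ccl17, Ccl22 and Ear2, all lower, beside 5.39% of all tested genes in that direction. The median log2 fold change of the 8 was -0.24, against -0.012 over all tested genes. Ccl17 met the filter only through its B16F1 libraries, where it was high. Il10 and Nos2, kept out by the filter, had log2 fold changes of 0.18 and 0.25 without it. Counts among the 8, here and below, therefore lean lower in part through the filter. With 3 against 2 libraries the exact permutation test has 10 splits and cannot give a p below 0.1. Whole tumors were sequenced, so fewer cells of a type and less RNA per cell cannot be told apart in any of these values. The labels do not name separate mice, and the p-values cover only the spread among libraries, which may be technical.

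Ccl17 encodes a chemokine of dendritic cells that attracts T cells through CCR4. It was 2.04, 1.48 and 1.79 FPKM in B16F1 libraries 1, 2 and 3 and 0.481 and 0.364 FPKM in B16F1-CXCL5 libraries 1 and 2. Every B16F1 value lay above every B16F1-CXCL5 value, as it did for Ear2, so 2 of the 8 did not overlap in that direction and none in the other. Of all tested genes, 15.6% did so lower, 10.8% higher and 26.4% either way. The means were 1.77 ± 0.276 (SD, n = 3) and 0.423 ± 0.0826 FPKM (SD, n = 2), so the B16F1 mean was 4.19 times the other. On the log2 scale of FPKM + 1 the difference was -0.96 (SE 0.15, limma adjusted p = 0.181). Unadjusted, limma gave 0.000893 and the two-sided exact permutation test 0.1, its minimum. This transcript has only 514 nt, and at the estimated depth the values stand for about 12 to 17 fragments in B16F1 and 3 to 4 fragments in B16F1-CXCL5 libraries, so the size of the ratio is poorly fixed. Ccl17 lies at chr8:94810453-94812036 (GRCm38) on the plus strand and has 3 exons.

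Ccl22 encodes the other ligand of CCR4, and its gene ends 58753 bases before Ccl17 begins, at chr8:94745590-94751699. It was 3.22, 1.40 and 3.48 FPKM in B16F1 and 1.5 and 0.502 FPKM in B16F1-CXCL5 libraries. The groups overlapped, because B16F1 library 2 lay just under B16F1-CXCL5 library 1. The difference was -0.88 on the log2 scale (SE 0.35, limma adjusted p = 0.55), with 0.3 from the two-sided exact permutation test. Its values rest on about 29 to 195 estimated fragments. The log2 ratio of FPKM + 1 of Ccl17 to Ccl22 within a library lay between -0.68 and 0.05 in B16F1 and was -0.75 and -0.14 in the others (two-sided exact permutation p = 0.9), so the ratio overlapped between the groups. Its difference of -0.08 between the groups turned to 0.13 without B16F1 library 2 and to 0.23 without B16F1-CXCL5 library 1.

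The T cells on which both chemokines act left few fragments in these tumors. Ccr4, their receptor, was 0.199 to 0.219 FPKM in B16F1 and 0.119 and 0.191 FPKM in B16F1-CXCL5 libraries. Foxp3, the transcription factor of regulatory T cells, was 0.0388 to 0.0619 FPKM in B16F1 and 0.116 and 0.0589 FPKM in B16F1-CXCL5 libraries, and 8 T cell markers together summed to 2.67 to 3.92 FPKM. Of 10 genes listed for the CCR4 axis and regulatory T cells only Tnfrsf18, a costimulatory receptor, entered the test, with 3.42 ± 1.20 (SD, n = 3) and 2.05 ± 0.621 FPKM (SD, n = 2) and a limma adjusted p of 0.649. Tnfrsf4, the costimulatory receptor OX40, was 0.507 to 0.797 FPKM in B16F1 and 1.11 and 0.863 FPKM in B16F1-CXCL5 libraries, without overlap (limma adjusted p = 0.671 without the filter). Of the 9 genes under the filter, 7 had a log2 fold change above 0 and 2 below, so the list did not move one way.

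Il4ra, the IL-4 receptor alpha chain through which interleukin 4 and interleukin 13 act, was 8.16, 6.81 and 9.06 FPKM in B16F1 and 11.2 and 5.03 FPKM in B16F1-CXCL5 libraries. The B16F1-CXCL5 libraries held both the highest and the lowest value of the 5. The log2 fold change was -0.06, with a 95% interval from -0.81 to 0.68 and a limma adjusted p of 0.979. Its sign turned without B16F1-CXCL5 library 2 (0.44) and without B16F1 library 3 (0.02).

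Mrc1, the mannose receptor CD206, was 14.7, 9.91 and 17.9 FPKM in B16F1 and 18.1 and 12.6 FPKM in B16F1-CXCL5 libraries. The groups overlapped over most of their range. The log2 fold change was 0.13, with a 95% interval from -0.53 to 0.78 (limma adjusted p = 0.94), and its sign turned without B16F1 library 2 (-0.10) or B16F1-CXCL5 library 1 (-0.12).

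Clec10a and Mgl2 encode C-type lectins of macrophages and dendritic cells that bind galactose and N-acetylgalactosamine. Clec10a was 10.4, 8.09 and 11.5 FPKM in B16F1 and 8.44 and 7.76 FPKM in B16F1-CXCL5 libraries, with a log2 fold change of -0.26 (95% interval from -0.64 to 0.11, limma adjusted p = 0.689). Mgl2 was 2.82, 4.31 and 4.22 FPKM in B16F1 and 2.10 and 4.33 FPKM in B16F1-CXCL5 libraries. The highest and the lowest Mgl2 value both came from B16F1-CXCL5 tumors, and the order of those libraries was the reverse of that of Il4ra, Mrc1 and Arg1. The log2 fold change of Mgl2 was -0.22 (95% interval from -0.89 to 0.46, limma adjusted p = 0.881), and it was 0.17 without B16F1-CXCL5 library 1. The log2 ratio of Mgl2 to Clec10a differed by 0.04 between the groups (two-sided exact permutation p = 0.8), which is within the spread of the libraries and turned to -0.40 without B16F1-CXCL5 library 2 and to -0.14 without B16F1 library 1.

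Arg1, the arginase that turns arginine into ornithine and urea, was 11.5, 6.96 and 7.88 FPKM in B16F1 and 19.1 and 4.55 FPKM in B16F1-CXCL5 libraries. B16F1-CXCL5 library 1 was the highest of the 5 and library 2 the lowest. The groups differed by 0.14 on the log2 scale (SE 0.54, limma adjusted p = 0.975), and a mean over the B16F1-CXCL5 group describes neither of its libraries. With library 2 of that group left out the value was 1.07, and with library 1 left out -0.79. The 2 B16F1-CXCL5 libraries differed by 1.86 in log2(FPKM + 1) for Arg1, and only 0.415% of the 12533 tested genes differed by more. They differed in the same direction by 1.01 for Il4ra, by 0.73 for Ccl22 and by 0.49 for Mrc1, and by -0.78 for Mgl2, with 1.41%, 2.77%, 6.04% and 2.43% of tested genes differing by more. The sum of macrophage and monocyte markers differed between these libraries too, 648 FPKM in library 1 and 413 FPKM in library 2, while neutrophil markers summed to 775 and 844 FPKM. Its part in the spread of Arg1 was not tested.

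Nos2, the inducible nitric oxide synthase that marks classical activation, was 0.561, 0.316 and 0.241 FPKM in B16F1 and 0.708 and 0.548 FPKM in B16F1-CXCL5 libraries. The groups overlapped, with B16F1 library 1 just above B16F1-CXCL5 library 2. In the fit without the filter on low values the difference was 0.25 on the log2 scale (SE 0.12, limma adjusted p = 0.676), where 0.128% of 18751 genes passed. The values stand for about 27 to 77 estimated fragments. The log2 ratio of FPKM + 1 of Arg1 to Nos2 was between 2.60 and 3.01 in B16F1 and was 3.56 and 1.84 in the others (two-sided exact permutation p = 0.8). All 5 ratios were above 0, so Arg1 was above Nos2 in every library. The difference between the groups, -0.11, was 0.74 without B16F1-CXCL5 library 2.

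Ear2, an eosinophil-associated ribonuclease that some mouse macrophages also make, was 3.52, 3.46 and 4.69 FPKM in B16F1 and 2.36 and 1.69 FPKM in B16F1-CXCL5 libraries. The groups did not overlap. The B16F1 mean was 1.92 times the other, and the difference was -0.69 on the log2 scale (SE 0.17, limma adjusted p = 0.401). The two-sided exact permutation test gave 0.1. These values rest on about 25 to 68 estimated fragments. Markers of eosinophils were low. Ear6, given above, and Siglec5, a sialic acid-binding lectin, had the highest means. Siglec5 was 0.0768, 0.0307 and 0.0578 FPKM in B16F1 and 0.362 and 0.305 FPKM in B16F1-CXCL5 libraries, higher without overlap and so opposite to Ear2 (limma adjusted p = 0.0945 without the filter). Epx, the eosinophil peroxidase, was listed at 0 in 4 libraries and at 0.237 FPKM in B16F1 library 2, Prg3 was listed at 0 in all libraries, and all 10 eosinophil genes together, Ear6 included, summed to at most 1.91 FPKM.

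Il10, a cytokine that restrains inflammation, was 0.658, 0.256 and 0.408 FPKM in B16F1 and 0.635 and 0.61 FPKM in B16F1-CXCL5 libraries. The groups overlapped through B16F1 library 1, the highest of the 5. Without the filter the difference was 0.18 on the log2 scale (SE 0.12, limma adjusted p = 0.805), on about 8 to 19 estimated fragments. Genes of its receptor and of STAT3 signalling did not pass either. Of 9 tested, 7 had a log2 fold change above 0, and the median was 0.08. Il10rb was 89.7 ± 16.75 (SD, n = 3) and 100.1 ± 14.1 FPKM (SD, n = 2). Il10ra, the other receptor gene tested, was far lower, at 1.38, 1.30 and 1.81 FPKM in B16F1 and 2.17 and 1.06 FPKM in B16F1-CXCL5 libraries. Stat3 was 46.0 ± 4.63 (SD, n = 3) and 46.7 ± 9.93 FPKM (SD, n = 2). Nfil3, a transcription factor that interleukin 10 induces, was 5.41 ± 0.1124 (SD, n = 3) and 7.14 ± 1.35 FPKM (SD, n = 2), a difference that missed the threshold (limma adjusted p = 0.514).

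**Figure D2:**
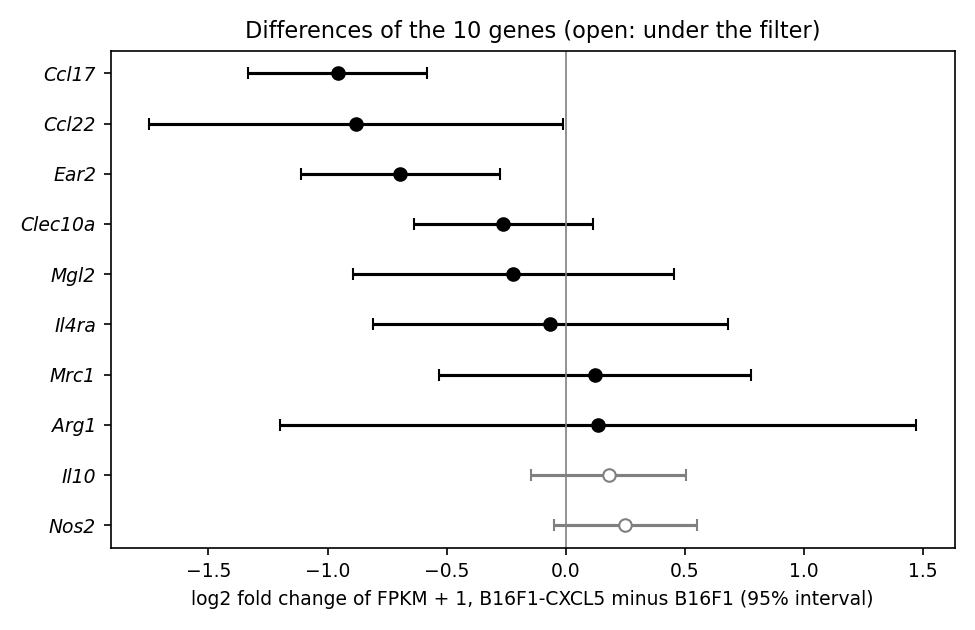
Log2 fold change of FPKM + 1 (horizontal axis, B16F1-CXCL5 minus B16F1) with its 95% interval from limma for each gene, filled points for the 8 tested genes and open points for Il10 and Nos2 from the fit without the filter. The unadjusted intervals of Ccl17, Ccl22 and Ear2 lie below 0, and that of Arg1 is the widest, from -1.20 to 1.47.

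Each gene was next set against the level of myeloid markers, as the difference between its log2(FPKM + 1) and the mean of 15 macrophage and monocyte markers or 12 dendritic cell markers in the same library. The macrophage mean was 3.80, 3.47 and 4.06 in B16F1 and 4.34 and 3.74 in B16F1-CXCL5 libraries, and the dendritic cell mean 2.01, 2.12 and 2.25 against 2.21 and 1.89, so both overlapped between the groups. Relative to macrophage markers, Ccl17, Ccl22, Clec10a, Ear2 and Il4ra were lower in both B16F1-CXCL5 libraries than in all B16F1 libraries, 5 of the 8 tested genes beside 7.75% of all tested genes, and none was higher, beside 1.01%. The markers themselves leaned upward: 14 of the 15 had a log2 fold change above 0, with a median of 0.155, and Mpeg1 (1.00), Cd14 (0.67) and Itgam (0.66), which neutrophils also express, did not overlap between the groups. The differences of the 5 genes were -1.22, -1.15, -0.53, -0.96 and -0.33 on the log2 scale, and for each the two-sided exact permutation test gave its minimum, 0.1. The 5 were picked for lack of overlap, so this p adds little to it. They also share the same macrophage mean and are not separate observations. For Il4ra the groups lay close, at -0.73 for both B16F1 library 3 and B16F1-CXCL5 library 1. With those 3 markers left out, a choice made after seeing the data and given with no test, Il4ra overlapped, and Ccl17, Ccl22, Clec10a and Ear2 were still lower without overlap, by -1.09, -1.02, -0.40 and -0.83, beside 2.63% of all tested genes. Relative to dendritic cell markers, Ccl17, Ccl22 and Ear2 did not overlap, 3 of the 8 beside 3.53% of all tested genes lower and 7.13% higher, with differences of -0.88, -0.81 and -0.62 (two-sided exact permutation p = 0.1, 0.2 and 0.1). For Ccl22 the nearest libraries were at -0.86 (B16F1 library 2) and -0.89 (B16F1-CXCL5 library 1). Mrc1, Arg1, Mgl2, Il10 and Nos2 overlapped on both scales. Together with the 3 ratios between genes, 23 ratios were computed, and the smallest exact permutation p adjusted over them was 0.329, so none passed.

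**Figure D3:**
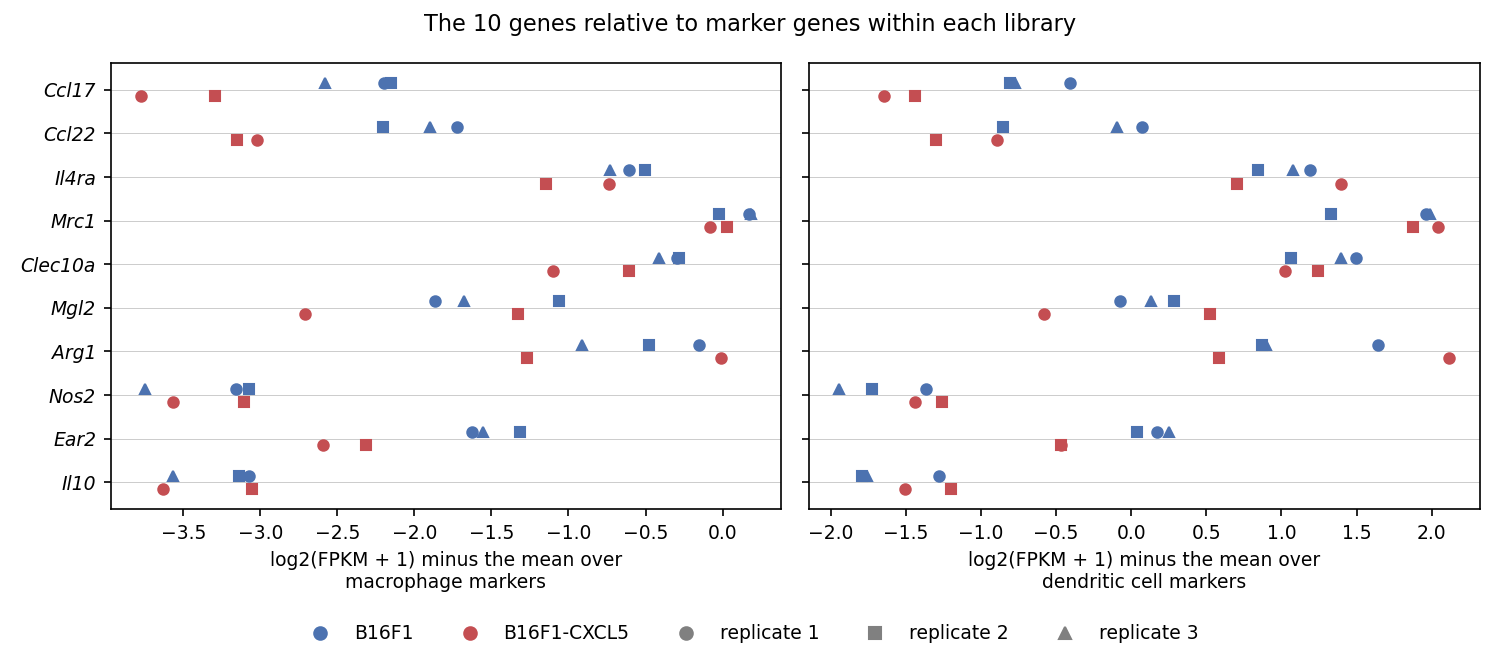
Log2(FPKM + 1) of each gene minus the mean over macrophage markers (left) or dendritic cell markers (right) of the same library, with 1 point per library, blue for B16F1 and red for B16F1-CXCL5. Ccl17, Ccl22 and Ear2 are apart between the groups in both panels, and Arg1 and Mgl2 spread most among the B16F1-CXCL5 libraries.

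The dendritic cell markers did not move as 1 group. Of 12 tested, 7 were above 0 and 5 below, with a median log2 fold change of 0.03. Fscn1, an actin-bundling protein of mature dendritic cells and of other cell types, was 61.3, 78.7 and 87.0 FPKM in B16F1 and 34.6 and 18.7 FPKM in B16F1-CXCL5 libraries (log2 fold change -1.52, limma adjusted p = 0.26). Itgax, the integrin CD11c, had the opposite order, 0.389 to 0.605 FPKM in B16F1 and 1.14 and 1.30 FPKM in B16F1-CXCL5 libraries (log2 fold change 0.55, limma adjusted p = 0.428). It met the filter only through the B16F1-CXCL5 libraries. Irf4, a transcription factor that alternative activation and Ccl17-producing dendritic cells use in mice, was 1.71 to 1.78 FPKM against 0.854 and 1.30 FPKM (limma adjusted p = 0.5).

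The type 2 cytokines themselves were near the floor of the data. Il4 was 0.101 to 0.276 FPKM over the 5 libraries, Il13 at most 0.0745 FPKM and Il5 at most 0.0268 FPKM, and Il9 and Il31 were listed at 0 throughout. Markers of mast cells and basophils, which can make such cytokines, summed to 15.0 to 28.7 FPKM in B16F1 and to 42.8 and 46.0 FPKM in B16F1-CXCL5 libraries. Kit was the highest of them in every library, at 7.60 to 10.6 against 18.9 and 23.3 FPKM, so the sums rest in large part on it. Hdc was 0.373 to 1.07 against 4.53 and 5.27 FPKM, and it met the filter only with the B16F1-CXCL5 libraries counted. Mcpt4 differed less, with 2.10 to 6.11 against 6.97 and 6.18 FPKM. Cpa3 was 0.605 to 2.38 against 3.91 and 3.70 FPKM. Cma1 (1.08 to 4.16 against 4.49 and 3.71 FPKM) and Tpsb2 (1.15 to 4.08 against 3.53 and 3.49 FPKM) overlapped between the groups. Which cells gave the Kit and Hdc values was not tested. None of 6 tested markers passed with limma, and a change in the number of these cells was not tested. Genes of the signalling chain had higher levels than the type 2 cytokines. Stat6 was 33.2 ± 1.73 (SD, n = 3) and 32.6 ± 3.32 FPKM (SD, n = 2), and Jak1 20.4 ± 2.07 (SD, n = 3) and 21.8 ± 1.29 FPKM (SD, n = 2). Of 23 genes listed for type 2 cytokines, receptors and signalling, 13 were tested and none passed with limma, 7 above and 6 below 0, with a median of 0.01. Il1rl1, the receptor of interleukin 33, was 3.28, 1.55 and 3.08 FPKM in B16F1 and 1.44 and 0.785 FPKM in B16F1-CXCL5 libraries, without overlap (log2 fold change -0.76, limma adjusted p = 0.512). Crlf2, the TSLP receptor, was 4.89 to 5.29 FPKM against 8.63 and 7.04 FPKM (log2 fold change 0.53, limma adjusted p = 0.332).

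Other genes of alternative activation did not shift together. Of 34 listed, 28 were tested, 11 above and 17 below 0, none passed with limma, and the median log2 fold change was -0.05. At an unadjusted limma p under 0.05 there were 4, beside 8.97% of all tested genes, Retnla and Irf4 lower and Egr2 and Flt1 higher. Retnla, the secreted protein FIZZ1 that interleukin 4 induces in mouse macrophages, was 13.4, 21.1 and 29.9 FPKM in B16F1 and 4.45 and 7.65 FPKM in B16F1-CXCL5 libraries. The groups did not overlap, and the B16F1 mean was 3.55 times the other (log2 fold change -1.64, SE 0.36, limma adjusted p = 0.332). Ccl8, a monocyte chemokine and the highest gene of this list, was 162 ± 31.6 (SD, n = 3) and 140.2 ± 57.3 FPKM (SD, n = 2). Egr2, a transcription factor of the alternative state in mouse macrophages, was 2.10 ± 0.293 (SD, n = 3) and 3.24 ± 0.603 FPKM (SD, n = 2) (limma adjusted p = 0.484).

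Of 26 classical activation genes listed beside Nos2, 14 were tested, 8 above and 6 below 0, with a median of 0.23, and none passed with limma. Il1b, also a product of neutrophils, was 2.26, 7.08 and 4.08 FPKM in B16F1 and 33.6 and 20.4 FPKM in B16F1-CXCL5 libraries (log2 fold change 2.41, limma adjusted p = 0.205). Fpr2, a formyl peptide receptor of neutrophils and macrophages, was 0.207 to 0.674 FPKM against 2.70 and 3.01 FPKM (log2 fold change 1.39, limma adjusted p = 0.106). Only its B16F1-CXCL5 values met the filter. Cxcl10, an interferon-induced chemokine, was 31.6 to 58.3 FPKM against 146 and 71.1 FPKM (log2 fold change 1.15, limma adjusted p = 0.465). Neutrophil markers were higher in the same libraries, as given above, and their part in these values was not tested.

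The genes around Arg1 and Nos2 in arginine and polyamine metabolism were mixed. Of 24 tested, 10 were above and 14 below 0, and none passed with limma. At an unadjusted limma p under 0.05 there were 9, beside the same 8.97%. Of these 3 were higher and 6 lower, the latter beside 5.39% of all tested genes. Ass1 had the largest log2 fold change of the list in size, -1.13 (limma adjusted p = 0.466). It was 5.55, 7.49 and 10.1 FPKM in B16F1 and 1.68 and 4.66 FPKM in B16F1-CXCL5 libraries, without overlap. Arg2, the mitochondrial arginase, was 0.401, 0.422 and 0.665 FPKM in B16F1 and 1.43 and 1.74 FPKM in B16F1-CXCL5 libraries (log2 fold change 0.79, limma adjusted p = 0.318). It entered the test only through the B16F1-CXCL5 libraries. The values of Arg2 were below those of Arg1 in every library. Gamt, which makes creatine, was 20.2 to 24.0 FPKM against 11.0 and 14.7 FPKM (log2 fold change -0.77, limma adjusted p = 0.263). Ckb, a creatine kinase, was 357 ± 18.8 (SD, n = 3) and 311 ± 5.12 FPKM (SD, n = 2). Oaz1, which restrains polyamine synthesis, was 327 ± 28.96 (SD, n = 3) and 295 ± 3.68 FPKM (SD, n = 2).

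**Figure D4:**
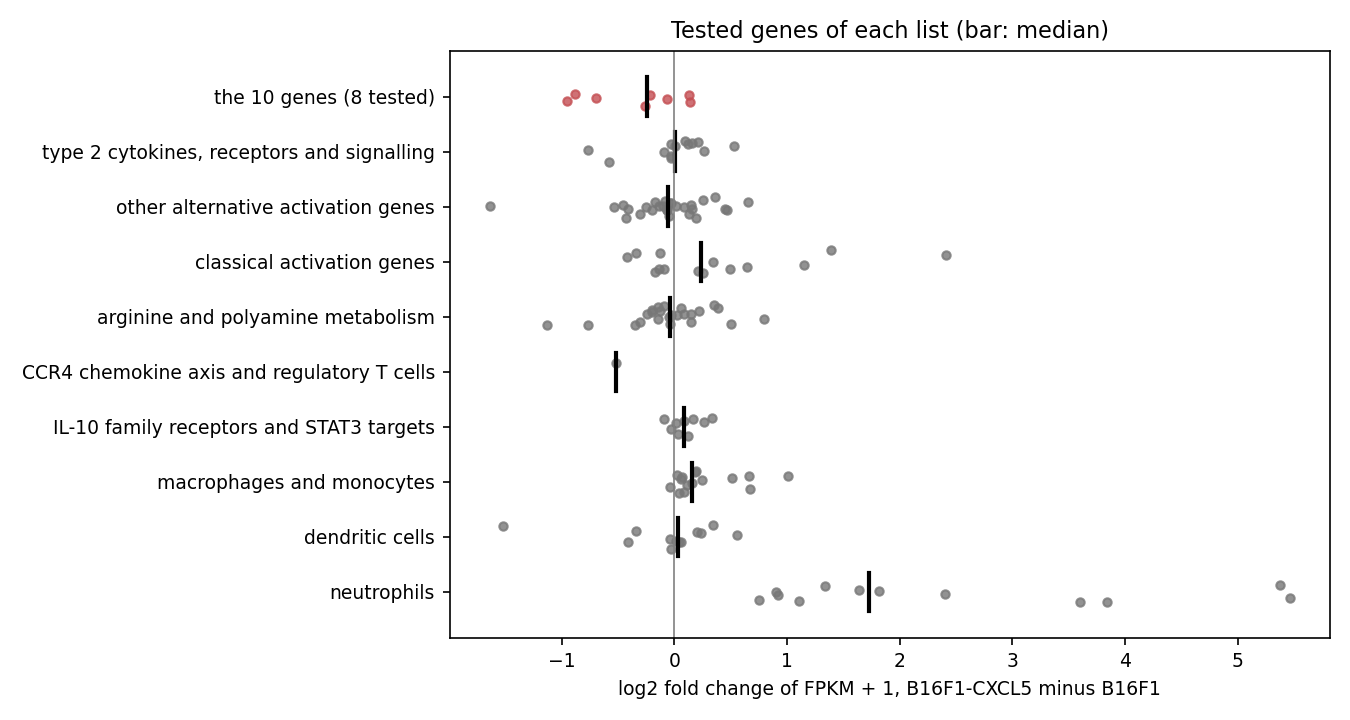
Log2 fold change of FPKM + 1 (horizontal axis, B16F1-CXCL5 minus B16F1) for each tested gene of the 10 genes, 6 related lists and 3 lists of cell type markers, with 1 point per gene and a bar at the median. The neutrophil markers stand to the right, with a median of 1.73, while the 8 tested genes of the 10 have a median of -0.24.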

How the data were processed

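RNA of whole tumors was sequenced from poly(A) libraries made with a strand-specific kit, with RNA integrity numbers of 8.7 to 9.5, per the labels' protocols. The authors deposited 1 table of FPKM values, with 1 column per library and none of other samples. The submitters' processing notes name Cufflinks 2.2.1, SAMtools 0.1.1.9, TopHat2 2.0.10, Bowtie 1.0.0 and FastQC 0.10.1, and build GRCm38 (mm10). For the annotation, the strand setting and the scaling among libraries, nothing is given in the sources used here. FPKM is not a count, so limma 3.58.1 (R 4.3.3) with an intensity trend was run on log2(FPKM + 1), over genes that reached an FPKM of 1 in 2 or more libraries, and checked on simulated data. Benjamini-Hochberg adjustment covered all 12533 tested genes, with a threshold of 0.05, and intervals are at 95% without adjustment. Single values were compared by an exact two-sided permutation test over 10 splits.

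Depth was estimated from the steps of low values of single-transcript genes of 800 to 6000 nt (GENCODE M21), with an assumed fragment length of 200 nt. It is rough, as 50.8 to 55.1% of these values lay within 0.15 of a whole number of fragments, against 30% for evenly spread values. Fragments behind a gene were computed on its longest coding transcript, and its coordinates are those of GENCODE M21. Of 260 listed symbols 256 were found, 4 of them under an older name. The 10 genes and the lists were chosen with earlier results of these data known. In each list the 2 genes with the highest mean FPKM, the 2 with the smallest p and any called gene could be named, with close copies and Cxcl5. Irf4, Flt1, Cd14, Ccr4, Foxp3, Epx, Prg3, Il10ra and the type 2 cytokines fall outside this rule and were chosen after their values were seen. The same holds for Trem1, Mmp8, Cpa3, Cma1, Tpsb2 and Ass1. Marker lists are given mainly as sums. Replicate numbers were not treated as pairs, since only 2 numbers are shared. Alternatives were 2 other pseudocounts, 2 other filters, equal library medians, no trend, library weights, a replicate block and leaving out each library.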

Additional observations from a re-analysis of the deposited data

How the results depend on the processing

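None of the 8 tested genes of the 10 passed the limma threshold under any alternative that tested it, and neither did Il10 or Nos2 in the fit without the filter. The filter on a mean FPKM of 3 gave no value for Ccl17, Ccl22, Il10 and Nos2. The lowest adjusted p was 0.0703, for Ccl17 without the intensity trend, and its adjusted p reached 0.965 without B16F1-CXCL5 library 2. The log2 fold change of Ccl17 lay between -1.84 and -0.89, that of Ccl22 between -1.41 and -0.51, that of Ear2 between -0.92 and -0.53 and that of Clec10a between -0.39 and -0.16, and all 4 kept their sign. So did Il10 (0.09 to 0.49) and Nos2 (0.18 to 0.67). Leaving out 1 library moved Arg1 between -0.79 and 1.07, Mrc1 between -0.12 and 0.37, Mgl2 between -0.61 and 0.17 and Il4ra between -0.57 and 0.44, with changes of sign. The log2 ratio of Arg1 to Nos2 then differed by -0.97 to 0.74, Mgl2 to Clec10a by -0.40 to 0.49 and Ccl17 to Ccl22 by -0.38 to 0.23. With a pseudocount of 0.1 these 3 differences were -0.55, -0.003 and -0.42, against -0.11, 0.04 and -0.08 in the main setting. The small differences of Arg1 to Nos2 and of Ccl17 to Ccl22 thus depend on the pseudocount.

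Over all genes, 17 passed in the main setting. The count was 39 without the intensity trend, 31 with library weights, 8 at a pseudocount of 0.1, 7 among genes whose mean FPKM reached 3, and 2 to 34 when 1 library was left out, with the 2 calls, both lower, without B16F1-CXCL5 library 2. The cause was not tested. With replicate numbers as a block 46 passed, and Il4ra turned to 0.019. That block leaves B16F1 library 3 without a partner, and deviations of same-numbered libraries correlated at only -0.028 and -0.019 across genes. Depth limits Ccl17 and Il10 most, with fewer than 20 estimated fragments in every library.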
